A study of Oryzias latipes and Danio rerio with 6 samples.

Results

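The medaka genome assembly behind these lists holds, beside chromosomes 1 to 24 and the mitochondrial sequence, many pieces that are not placed on a chromosome and are named scaffold or ultracontig followed by a number. The regions on these unplaced pieces were taken by the name of their sequence alone, without using their scores or any other measured value. They numbered 3417 of the 16988 regions in the 4 medaka lists, and of 52712 regions in all 8 lists of the series. Of the 3417 regions, 2350 lay on 1188 sequences named scaffold and 1067 on 76 sequences named ultracontig, and no other name type occurred. The remaining medaka regions comprised 13569 on assembled chromosomes and 2 on the mitochondrial sequence. The lists describe the same genome, so one place can be counted in several lists.

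The regions came from iDamID-seq, a form of DNA adenine methylase identification, in wild-type whole medaka (Oryzias latipes) embryos injected with mRNA for Dam fused to Yap1, Dam fused to Yap1b, or Dam fused to GFP as the control. Each fusion was 1 sample, labelled stage 16, although the protocol names 80% epiboly. The protocol gives 40 embryos to a replicate and 3 replicates to a sample, and 1 list was available for each fusion and direction. A positive list was available for each factor, and a control list paired with it by name was deposited under Dam-GFP. Both factors were therefore set against the same Dam-GFP sample. Because the protein was expressed from injected mRNA in whole embryos, the cell types in which it met a region are unknown. Each group was 1 sample without values per replicate, so no test between groups was made. The 95% intervals given here reflect only the number of regions counted. They are too narrow where neighbouring regions of a list are not independent, and read depth is unknown.

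Yap1 is the transcriptional co-activator that the Hippo kinase cascade holds out of the nucleus. It has no DNA-binding domain and reaches DNA mainly through TEAD factors. Yap1b is a further Yap family member, profiled in this series in medaka and not in zebrafish. Dam is a bacterial enzyme that methylates the adenine of the 4-base word GATC, so a Dam fusion leaves a mark wherever it comes close to such a word. Dam-GFP, which has no chromatin target of its own, marks mostly the DNA that is open to the enzyme. Unplaced sequence is the part of an assembly that could not be joined to a chromosome, often because it is repetitive or short. Which medaka assembly the lists refer to is not stated in the labels, and no genome was used here, so neither gene names nor base sequences were attached to these regions.

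Unplaced sequence held a smaller part of the positive lists than of the Dam-GFP control lists, for Yap1 and for Yap1b. It held 713 of 4212 regions in the Yap1 positive list (16.9%, Wilson 95% interval 15.8 to 18.1), against 1183 of 5190 in the Yap1 control list (22.8%, 21.7 to 24.0). It held 563 of 3792 regions in the Yap1b positive list (14.8%, 13.8 to 16.0), against 958 of 3794 in the Yap1b control list (25.3%, 23.9 to 26.7). The intervals of positive and control list did not overlap for either factor. In summed length the regions covered 778 kb in the Yap1 positive list, against 1189 kb in its control list. They covered 633 kb in the Yap1b positive list, against 943 kb in its control list.

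**Figure D1:**
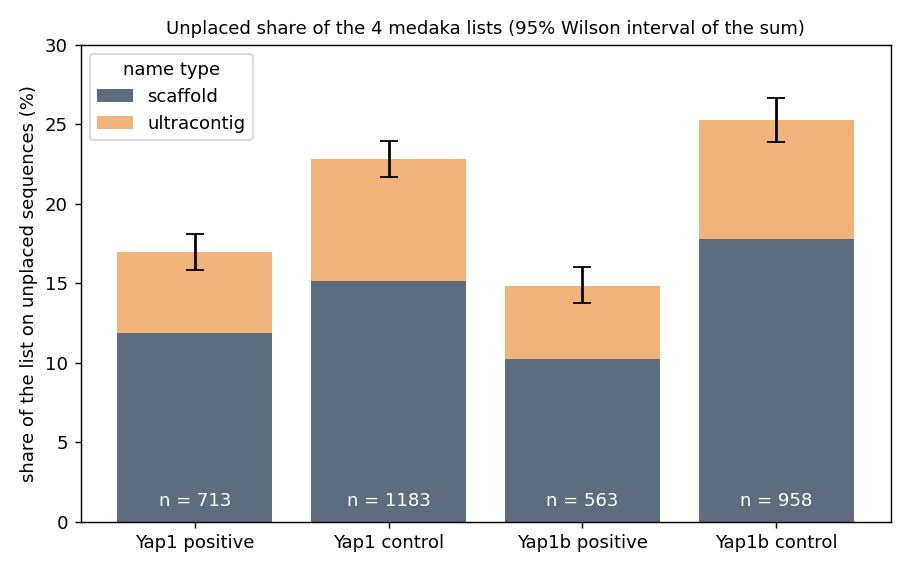
Share of each medaka list, in percent of its regions, that lay on unplaced sequences, split into scaffolds and ultracontigs. Error bars are Wilson 95% intervals of the sum and n is the number of unplaced regions. Both positive lists stand below their control lists, 16.9% against 22.8% for Yap1 and 14.8% against 25.3% for Yap1b.

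Scaffolds and ultracontigs both had this lower positive share. Scaffolds held 500 Yap1 positive regions, against 787 control regions, which is 0.635 positive per control region. On assembled chromosomes the Yap1 lists held 3498 positive and 4007 control regions, 0.873 positive per control region. The odds ratio of a scaffold over an assembled place, positive over control, was 0.728 (0.645 to 0.821). Ultracontigs held 213 Yap1 positive regions, against 396 control regions, 0.538 per control region, with an odds ratio of 0.616 (0.518 to 0.732). For Yap1b, scaffolds held 389 positive regions, against 674 control regions, an odds ratio of 0.507 (0.443 to 0.580). Ultracontigs held 174 Yap1b positive regions, against 284 control regions, an odds ratio of 0.538 (0.443 to 0.654). These values stood beside 3228 positive and 2836 control regions of Yap1b on assembled chromosomes, 1.14 positive per control region.

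With all scaffolds pooled and all ultracontigs included, scaffolds and ultracontigs could not be told apart by how positive and control regions were divided. Ultracontigs made up 29.9% (26.6 to 33.3) of the unplaced Yap1 positive regions, against 33.5% (30.8 to 36.2) of the unplaced Yap1 control regions. They made up 30.9% (27.2 to 34.8) of the unplaced Yap1b positive regions, against 29.6% (26.8 to 32.6) of the control regions. The odds ratio of ultracontig over scaffold, positive over control, was 0.847 (0.693 to 1.03) for Yap1 and 1.06 (0.847 to 1.33) for Yap1b, and each interval includes equal odds. Without ultracontig115, the sequence with most regions, the ultracontig shares for Yap1 were 26.0% of positive and 31.6% of control regions. For Yap1b they were then 26.3% and 27.8%. No odds ratio was worked out without ultracontig115, so the result for Yap1 may depend on this sequence.

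Single chromosomes reached values as low as the unplaced sequence did. All unplaced regions combined had 0.603 positive per control region for Yap1 and 0.588 for Yap1b. Among the 24 assembled chromosomes the median was 0.902 for Yap1, between 0.357 on chromosome 2 and 1.29 on chromosome 20. For Yap1b the median was 1.16, between 0.514 on chromosome 2 and 1.70 on chromosome 20. For Yap1, chromosome 2 and chromosome 18 (0.548) lay below the unplaced value, and for Yap1b chromosome 2 alone did. The unplaced sequence thus stood at the low end of the spread between chromosomes, inside its range.

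**Figure D2:**
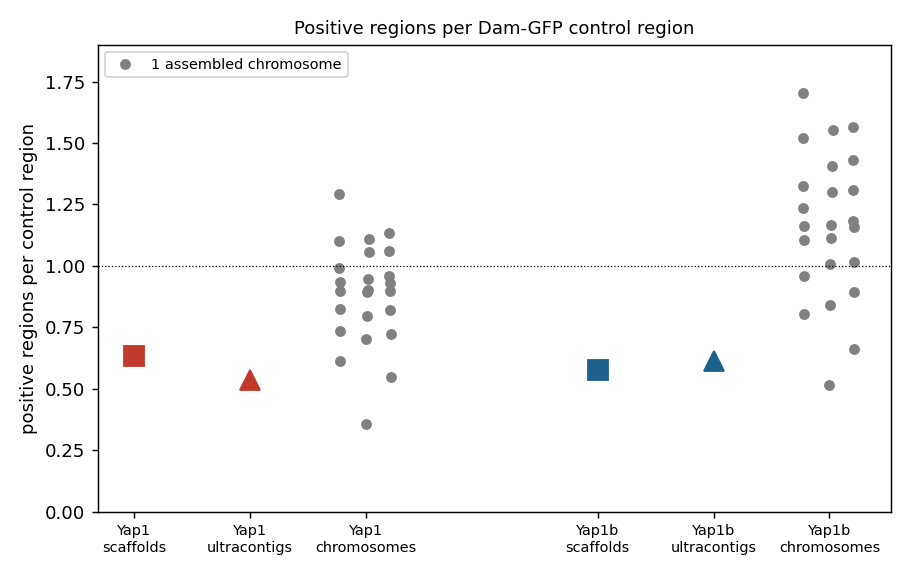
Positive regions per Dam-GFP control region on scaffolds (squares), on ultracontigs (triangles) and on each of the 24 assembled chromosomes (grey points), for Yap1 and Yap1b. The unplaced values, between 0.538 and 0.635, lie near the lowest chromosomes, and the dotted line marks equal numbers.

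The unplaced regions were spread over many sequences. Across the 4 lists 1264 unplaced sequences carried a region, and 607 of them carried 1 region in all. The Yap1 positive list touched 462 sequences and had a single region on 370 of them, against 651 sequences and 467 with a single region in its control list. The Yap1b positive list touched 384 sequences, 316 of them once, against 617 sequences and 480 touched once in its control list. The 10 sequences with most regions held 17.5% (14.9 to 20.5) of the unplaced Yap1 positive regions, against 16.2% (14.2 to 18.4) of the control regions. They held 17.9% (15.0 to 21.3) of the unplaced Yap1b positive regions, against 14.3% (12.2 to 16.7) of the control regions.

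Sequences were also counted by whether they held positive regions, control regions or both, which is bounded by how many regions a sequence carried. The split expected from the list sizes alone was not worked out. Of 968 sequences listed for Yap1, 317 had positive regions without a control region, 506 had control regions without a positive region, and 145 had both. Of 885 sequences listed for Yap1b, 268 had positive regions only, 501 control regions only, and 116 both. A sequence with 1 region can only be of one kind, which held for 694 sequences in the Yap1 pair of lists and 656 in the Yap1b pair. Of the 274 sequences with at least 2 regions in the Yap1 pair, 35 had positive regions only, 94 control regions only and 145 both. Of the 229 such sequences for Yap1b, 25 had positive regions only, 88 control regions only and 116 both. The 71 ultracontigs listed for Yap1 were mostly mixed, with 5 of positive regions only, 19 of control regions only and 47 of both. On 11 of them positive regions were the more numerous, against 52 with more control regions and 8 with equal numbers. Of 70 ultracontigs listed for Yap1b, 16 had more positive regions, 46 had more control regions and 8 had equal numbers. Among the 24 assembled chromosomes, 6 had more Yap1 positive than control regions and 18 had more Yap1b positive than control regions.

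Ultracontig115 carried more regions than any other unplaced sequence in each of the 4 lists, and it went against the general direction. It held 37 Yap1 positive regions, against 32 Yap1 control regions, and 35 Yap1b positive regions, against 24 Yap1b control regions. Positive regions were 53.6% (42.0 to 64.9) of the Yap1 pair and 59.3% (46.6 to 70.9) of the Yap1b pair. On assembled chromosomes the same shares were 46.6% (45.5 to 47.7) and 53.2% (52.0 to 54.5), which lie inside both intervals of ultracontig115. The last listed end on this sequence was at base 5540726, a lower bound of its length. Over that span it had 6.68 Yap1 positive regions per Mb, against 5.78 control regions per Mb, and 6.32 Yap1b positive regions per Mb, against 4.33 control regions per Mb. Assembled chromosomes, measured to their last listed ends, had 4.84 Yap1 positive and 5.54 control regions per Mb, and 4.47 Yap1b positive and 3.92 control regions per Mb.

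Within ultracontig115 the second Mb differed most between the kinds of list. Between 1 and 2 Mb it held 7 Yap1 positive regions, against 2 control regions, and 7 Yap1b positive regions, against 1 control region. Between 0 and 1 Mb it held 3 Yap1 positive regions, against 5 control regions, and 2 Yap1b positive regions, against 1 control region. From 5 Mb to the last listed end it held 4 Yap1 positive regions, against 7 control regions, and 5 Yap1b positive regions, against 6 control regions. These windows hold few regions, and no window was tested.

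Ultracontig72 showed the opposite direction with the largest difference in counts for both factors. It held 11 Yap1 positive regions, against 26 control regions, and 10 Yap1b positive regions, against 23 control regions, up to base 3592539. Positive regions were 29.7% (17.5 to 45.8) of its Yap1 pair and 30.3% (17.4 to 47.3) of its Yap1b pair. Because this sequence was chosen for its excess of control regions, these shares are a description and do not show that it differs from the assembled chromosomes. The control regions were densest between 0 and 1 Mb, where 8 Yap1 positive regions stood against 14 control regions and 5 Yap1b positive regions against 10 control regions. From 3 Mb on no positive region of either factor was listed, against 4 Yap1 control and 2 Yap1b control regions.

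Ultracontig106 was nearly without positive regions. It held 0 Yap1 positive regions, against 14 control regions, a positive share of 0% (0 to 21.5). It held 1 Yap1b positive region, against 10 control regions, a positive share of 9.09% (1.62 to 37.7). Ultracontig49 had 5 Yap1 positive regions, against 19 control regions, and 4 Yap1b positive regions, against 10 control regions. Scaffold661 carried control regions alone, with 0 Yap1 positive regions against 4 control regions and 0 Yap1b positive regions against 7 control regions. The positive share on scaffold661 was 0% for Yap1 (0 to 49.0) and 0% for Yap1b (0 to 35.4). Ultracontig106, ultracontig49 and scaffold661 were also chosen for their excess of control regions.

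Other sequences with many regions showed both directions. Ultracontig182 was near balance, with 21 Yap1 positive regions against 23 control regions and 14 Yap1b positive regions against 16 control regions. Ultracontig90 held 14 Yap1 positive regions, against 22 control regions, and 9 Yap1b positive regions, against 15 control regions. Ultracontig257 held 11 Yap1 positive regions, against 18 control regions, and 8 Yap1b positive regions, against 13 control regions. For ultracontig62 the numbers were 10 Yap1 positive regions, against 16 control regions, and 7 Yap1b positive regions, against 11 control regions. On ultracontig256 there were 4 Yap1 positive regions, against 12 control regions, and 5 Yap1b positive regions, against 9 control regions. Scaffold212, the scaffold with most regions, held 12 Yap1 positive regions, against 10 control regions, and 8 Yap1b positive regions, against 6 control regions. Of 18 unplaced sequences with at least 10 regions in the Yap1 pair of lists, 4 had more positive regions, 13 had more control regions and 1 had equal numbers. Of 12 such sequences for Yap1b, 2 had more positive and 10 more control regions. For comparison, 6 of the 24 assembled chromosomes had more Yap1 positive than control regions, and 18 had more Yap1b positive than control regions. An excess of control regions for Yap1 is therefore not particular to unplaced sequence. Measured against the pooled assembled positive share, 12 of the 18 sequences lay below 46.6% for Yap1 and 10 of the 12 below 53.2% for Yap1b.

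**Figure D3:**
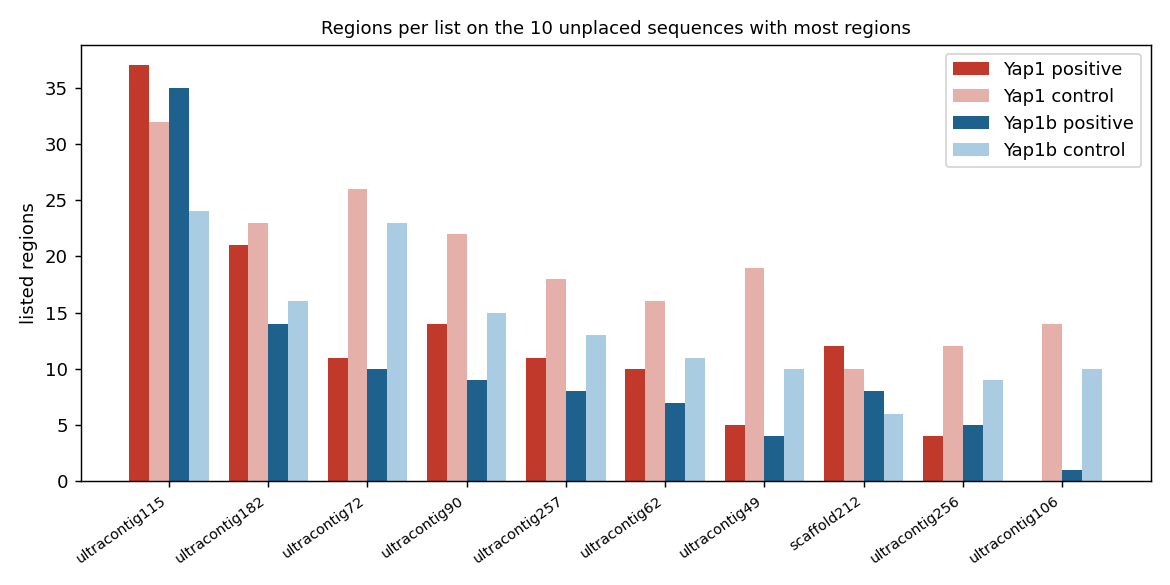
Number of listed regions in each of the 4 lists on the 10 unplaced sequences with most regions. Positive bars stand above control bars for both factors on ultracontig115 (37 against 32 and 35 against 24) and scaffold212 (12 against 10 and 8 against 6), and below them on the other 8 sequences.

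Some small sequences had an excess of positive regions and were named for it. On scaffold4011 both factors had a positive region at bases 868 to 2803 and another at 2808 to 4273, and Yap1b had a further one at 5143 to 6906. No control region was listed on scaffold4011. Scaffold2105 held 4 Yap1 positive regions and 2 Yap1b positive regions between bases 7346 and 13505, again without a control region. Ultracontig198 held 5 Yap1 positive regions, against 0 control regions, and 2 Yap1b positive regions, against 1 control region. Its region at bases 31494 to 33379 had rank 235 by the authors' score in the Yap1 positive list and rank 161 in the Yap1b positive list, where rank 1 is the highest score. Scaffold1009 held 3 Yap1 positive regions, against 1 control region, and 4 Yap1b positive regions, against 1 control region. Both factors had positive regions there at 23574 to 25939 and 25944 to 26658, and Yap1 also at 26663 to 26875. The other Yap1b positive regions lay at 59275 to 59976 and 59981 to 60687. Some neighbours among these regions were only 4 bases apart, so the Yap1 excess on scaffold1009 depends on counting them separately. Joined, the Yap1b positive regions there would still form places at 23574 to 26658 and 59275 to 60687, against 1 control region. Such neighbours also add to the positive counts on scaffold4011 and, for Yap1, on scaffold2105.

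Neighbouring regions of a list lay never closer than 4 bases on unplaced sequence, and some pairs lay exactly 4 bases apart, the length of the word GATC that Dam methylates. The pairs on scaffold4011 and scaffold1009 are examples. Of 251 neighbouring pairs in the Yap1 positive list, 27 had this gap, against 14 of 532 pairs in its control list. Of 179 pairs in the Yap1b positive list, 16 had it, against 11 of 341 pairs in its control list. Such gaps numbered 27 among 713 unplaced Yap1 positive regions, 3.79 for every 100 regions (2.62 to 5.45), against 14 among 1183 unplaced Yap1 control regions, 1.18 for every 100 (0.706 to 1.98). They numbered 16 among 563 unplaced Yap1b positive regions, 2.84 for every 100 (1.76 to 4.57), against 11 among 958 unplaced Yap1b control regions, 1.15 for every 100 (0.642 to 2.04). Assembled chromosomes had 2.60 for every 100 Yap1 positive regions, against 0.824 for every 100 control regions. They had 2.48 for every 100 Yap1b positive regions, against 0.776 for every 100 control regions. Whether the 4 bases are a GATC word was not tested, since it needs the genome of this build. Regions that meet in this way were counted as separate regions, as the lists give them.

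Positive and control regions of a factor never overlapped, neither on unplaced sequence nor on assembled chromosomes. Both lists are opposed directions of the same comparison with Dam-GFP, so a place could hardly enter both. The lack of overlap is therefore no evidence about the regions. A control region lay on the same sequence for 351 of 713 unplaced Yap1 positive regions (49.2%, 45.6 to 52.9), at a median distance of 26.2 kb. For Yap1b this held for 267 of 563 regions (47.4%, 43.3 to 51.6), at a median of 32.0 kb. On assembled chromosomes every positive region had one, at medians of 60.4 kb for Yap1 and 92.0 kb for Yap1b. Distances on short sequences are bounded by the sequence, so the shorter unplaced medians do not show closer spacing.

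The median unplaced region was longer than the median assembled one in each of the 4 lists but the intervals overlapped in each. The median unplaced Yap1 positive region was 954 bp (879 to 999) and the median assembled one 943.5 bp (902 to 974). The median unplaced Yap1b positive region was 963 bp (911 to 1023) and the assembled one 944.5 bp (914 to 970). Control regions had shorter medians than positive ones. Their unplaced medians were 851 bp (821 to 881) for Yap1 and 840.5 bp (804 to 860) for Yap1b. The assembled control medians were 823 bp (808 to 839) and 805 bp (790 to 820). The lower quartile of unplaced length was nevertheless the longer in the control lists. It was 632.5 bp, against 555 bp in the positive list, for Yap1 and 615 bp, against 610 bp, for Yap1b. Unplaced regions ranged from 201 to 5895 bp in the Yap1 positive list, against 231 to 4354 bp in its control list. They ranged from 201 to 4941 bp in the Yap1b positive list, against 225 to 4122 bp in its control list. Short regions under 300 bp were 39 of 713 unplaced Yap1 positive regions (5.47%, 4.03 to 7.39), against 6 of 1183 control regions (0.507%, 0.233 to 1.10). They were 32 of 563 unplaced Yap1b positive regions (5.68%, 4.05 to 7.91), against 5 of 958 control regions (0.522%, 0.223 to 1.22). On assembled chromosomes they were 231 of 3498 Yap1 positive regions (6.60%), against 6 of 4007 control regions, and 185 of 3228 Yap1b positive regions (5.73%), against 5 of 2836 control regions. The same direction thus held on and off the assembled chromosomes.

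Positive regions began at the first base of their scaffold more often than control regions did. Of 500 Yap1 positive regions on scaffolds 57 began there (11.4%, 8.90 to 14.5), against 32 of 787 Yap1 control regions (4.07%, 2.89 to 5.68), an odds ratio of 3.04 (1.94 to 4.75). Of 389 Yap1b positive regions on scaffolds 48 began there (12.3%, 9.43 to 16.0), against 31 of 674 Yap1b control regions (4.60%, 3.26 to 6.45), an odds ratio of 2.92 (1.82 to 4.67). On ultracontigs this was rare, at 2 of 213 Yap1 positive regions against 1 of 396 control regions, and 2 of 174 Yap1b positive regions against 1 of 284 control regions. No region of an assembled chromosome began at its first base. Ultracontigs and chromosomes have few first bases for their many regions, so these shares are bounded to be low and are not comparable with scaffolds. Scaffold regions at the first base had a median length of 979 bp in the Yap1 positive list, against 702.5 bp in its control list, and of 983 bp in the Yap1b positive list, against 759 bp in its control list. Such a region is cut off by the end of the assembled sequence, so its true extent is unknown.

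Regions at the first base were most frequent on scaffolds of high number, which also had the smallest last listed ends. A last listed end is only a lower bound of length, and it is small where the only region lies at the first base. The median last listed end was 72157 bp on scaffolds numbered 1 to 999, 18655 bp on 1000 to 1999, 8448 bp on 2000 to 2999, 5704.5 bp on 3000 to 3999 and 2646.5 bp on 4000 to 8130. On scaffolds 4000 to 8130, 28.1% of Yap1 positive regions began at the first base, against 15.5% of control regions, and 31.6% of Yap1b positive regions, against 14.3% of control regions. On scaffolds 2000 to 2999 the shares were 12.8% of Yap1 positive regions, against 1.55% of control regions, and 8.47% of Yap1b positive regions, against 4.0% of control regions. On scaffolds 1 to 999 only 3 Yap1 positive regions began there, against 0 control regions, and 1 Yap1b positive region, against 1 control region. In each of these 5 classes the positive share was the higher for both factors.

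**Figure D4:**
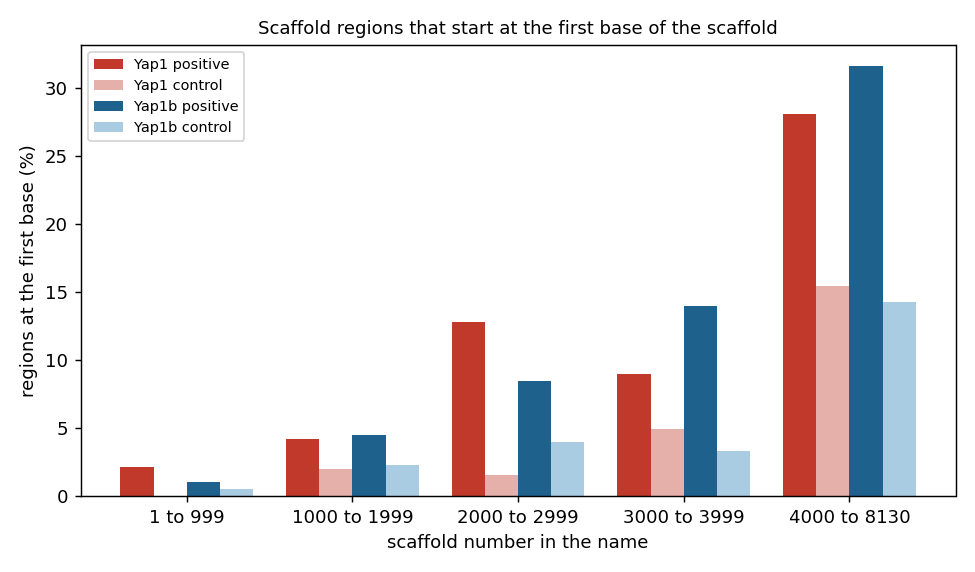
Share of scaffold regions, in percent, that began at the first base of their scaffold, in 5 classes of the number in the scaffold's name, for the 4 lists. In the highest class 28.1% of Yap1 and 31.6% of Yap1b positive regions began there, against 15.5% and 14.3% of the control regions.

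The number in a scaffold's name was also compared with how positive and control regions were divided. For Yap1 the odds ratio against assembled chromosomes, positive over control, was 0.675 (0.544 to 0.836) on scaffolds 1 to 999, 0.547 (0.426 to 0.701) on 1000 to 1999 and 0.693 (0.521 to 0.921) on 2000 to 2999. It was 0.948 (0.683 to 1.31) on 3000 to 3999 and 0.976 (0.763 to 1.25) on 4000 to 8130, where 121 positive regions stood against 142 control regions. For Yap1b the values were 0.462 (0.357 to 0.596), 0.452 (0.348 to 0.587), 0.518 (0.374 to 0.718), 0.483 (0.341 to 0.684) and 0.647 (0.496 to 0.844) in the same classes. On scaffolds 3000 to 8130 the lower share of Yap1 positive regions was therefore not detectable in either class. For Yap1b the interval stayed below equal odds in all 5 classes. Ultracontigs stood at 0.616 (0.518 to 0.732) for Yap1, below the intervals of scaffolds 3000 to 3999 and 4000 to 8130 and inside those of the lower classes. For Yap1b they stood at 0.538 (0.443 to 0.654), inside the intervals of all 5 classes. Differences between the classes, or between a class and ultracontigs, were not tested.

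By score, the authors' whole-number value for each region, unplaced regions lay near or slightly above the middle of each list. Positive and control medians were nearly equal for Yap1, and their intervals overlapped for both factors. The median percentile within the list was 53.1 (49.6 to 56.4) for unplaced Yap1 positive regions, against 53.2 (51.5 to 57.2) for unplaced Yap1 control regions. It was 49.8 (46.3 to 53.3) for unplaced Yap1b positive regions, against 55.4 (51.3 to 57.8) for unplaced Yap1b control regions. Medians of scaffolds and ultracontigs had overlapping intervals, at 55.0 (50.9 to 60.9) and 48.8 (40.8 to 54.3) in the Yap1 positive list. In the Yap1b positive list they were 51.9 (46.3 to 56.25) and 46.3 (41.2 to 53.9).

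The unplaced share was also compared between the highest and the lowest score class of each list. Among the 10% of highest score, unplaced regions made up 22.7% (19.0 to 27.0) of the Yap1 positive list, against 31.5% (27.6 to 35.6) of the Yap1 control list. They made up 11.9% (8.99 to 15.5) of this class in the Yap1b positive list, against 34.3% (29.7 to 39.2) of the Yap1b control list. In the lowest 25% they made up 16.0% of the Yap1 positive list, against 21.1% of its control list, and 14.8% of the Yap1b positive list, against 23.4% of its control list. Both control lists and the Yap1 positive list thus had a larger unplaced share in the highest 10% than in the lowest 25%. The Yap1b positive list had a smaller one within overlapping intervals. By counts, the rise in the Yap1 positive list lay on scaffolds. No intervals were worked out by name type within score classes, and the ultracontig counts are small. Its highest 10% held 77 scaffold and 19 ultracontig regions of 422, and its lowest 25% held 103 and 61 of 1028. In the control lists both name types made up a larger part of the highest 10%, with only a slight change for ultracontigs that was not tested. Their highest 10% held 116 and 46 of 515 for Yap1 and 92 and 37 of 376 for Yap1b. Their lowest 25% held 175 and 105 of 1327, and 149 and 71 of 939. Among the top 100 by score, ties included, 29 of 100 Yap1 positive regions were unplaced, against 43 of 104 Yap1 control regions. For Yap1b they were 13 of 100 positive regions, against 44 of 103 control regions. Among the top 50, 20 of 50 Yap1 positive regions were unplaced, against 21 of 50 Yap1 control regions, a difference of 1 region. For Yap1b they were 5 of 50 positive regions, against 22 of 52 control regions. The factors were not tested against each other, because both share the Dam-GFP sample.

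**Figure D5:**
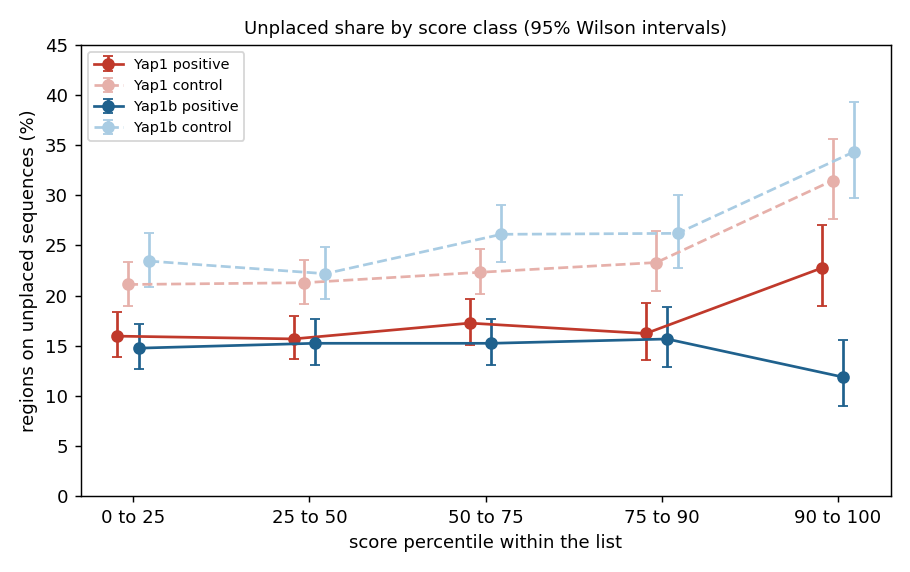
Share of regions on unplaced sequences, in percent, by class of score percentile within each list, with Wilson 95% intervals. Control lists (dashed) lie above positive lists (solid) in every class, and in the highest 10% the values are 22.7% against 31.5% for Yap1 and 11.9% against 34.3% for Yap1b.

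The unplaced Yap1 positive region of highest score lay on scaffold2494 at bases 1805 to 3324 and led the whole list with a score of 1000. The Yap1b positive list held bases 2045 to 3324 of it at rank 323. The next lay on ultracontig182 at 3358916 to 3359419 (504 bp, rank 5), where the Yap1b positive region began earlier, at 3357614, with rank 194. The region on scaffold903 at 68828 to 72922 (4095 bp) had rank 6 for Yap1 and, from base 67982 on, rank 986 for Yap1b. Scaffold3413 carried a region at 2166 to 4027 with rank 11 for Yap1 and no Yap1b entry. On ultracontig149 bases 129590 to 130999 had rank 12 for Yap1, and a longer Yap1b positive region from 128902 had rank 1288. Ranks are counted from the highest score of each list, of 4212 regions for Yap1 and 3792 for Yap1b. None of these 5 places was in a control list. For the Yap1 control list this carries no information, since no Yap1 positive region on any sequence overlapped a Yap1 control region. How often Yap1 positive regions overlapped Yap1b control regions was not worked out, so nothing is drawn from absence there either.

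The unplaced Yap1b positive regions of highest score had the same or nearby edges in the Yap1 positive list. The first lay on ultracontig182 at 2555167 to 2556438, with rank 3 for Yap1b and rank 74 for Yap1. Scaffold5172 at 902 to 2737 had rank 21 for Yap1b and rank 34 for Yap1, and scaffold1567 at 26227 to 27551 had rank 26 in both lists. On scaffold212 bases 22905 to 24158 had rank 31 for Yap1b and were covered by 2 Yap1 positive regions, the longer at 22905 to 23558 with rank 1969. On scaffold357 bases 160782 to 161545 had rank 39 for Yap1b, and the Yap1 positive region ran on to 162510 with rank 113. None of these places was in a control list. For the Yap1b control list this carries no information, since no Yap1b positive region on any sequence overlapped a Yap1b control region. Overlap of Yap1b positive with Yap1 control regions was not worked out for the whole lists, so nothing is drawn from absence there either. Since both factors were set against the same Dam-GFP sample, the entries are given side by side and no measure of likeness is drawn from them.

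The longest unplaced regions ranked anywhere from the top to the lower part of their lists by score. The longest in the Yap1 positive list, on scaffold1323 at 29773 to 35667 (5895 bp), had rank 3122, and the Yap1b positive list held its last part, from 34589 on, at rank 1260. On scaffold1623 bases 331 to 5412 (5082 bp) had rank 1474 for Yap1, and bases 2444 to 5412 had rank 3165 for Yap1b. On ultracontig182 bases 2438722 to 2443516 (4795 bp) had rank 2473 for Yap1, and a short Yap1b positive region at 2442806 to 2443516 had rank 81. On ultracontig170 bases 134071 to 137864 (3794 bp) had rank 109 for Yap1, and bases 134071 to 136421 had rank 1260 for Yap1b. The longest in the Yap1b positive list, on scaffold903 at 67982 to 72922, measured 4941 bp. It was followed by ultracontig90 at 2650198 to 2654249 (4052 bp, rank 1686), scaffold445 at 52077 to 55925 (3849 bp, rank 281) and scaffold1082 at 25883 to 29671 (3789 bp, rank 151). Ultracontig115 at 4828207 to 4831897 (3691 bp, rank 467) was the fifth.

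The control lists had unplaced regions at their very top. Scaffold2259 at 3938 to 8291 had rank 2 in the Yap1 control list and was also its longest unplaced region, at 4354 bp. Scaffold6120 carried Yap1 control regions at 1662 to 2837 (rank 3) and 2857 to 3311 (rank 13), which the Yap1b control list gave as one region at 1662 to 3311 with rank 2. Scaffold1926 at 2457 to 3898 had rank 5 and scaffold3342 at 428 to 956 rank 7 in the Yap1 control list. In the Yap1b control list ultracontig257 at 1256302 to 1258348 had rank 1, scaffold952 at 7242 to 7884 rank 3, scaffold2080 at 16261 to 17840 rank 4 and scaffold3324 at 1096 to 1551 rank 5. Ranks 2 to 5 of the Yap1b control list were thus all scaffold regions. No positive region of either factor overlapped these control places. Within a factor this carries no information, since no control region anywhere was overlapped by a positive region of its own factor. Between factors the overlap over the whole lists was not worked out, so nothing is drawn from it.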

How the data were processed

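DamID regions of 3 medaka samples, 1 per group, were used as 4 lists. Per the labels' protocols, embryonic DNA was cut at unmethylated sites with DpnII, cleaved at methylated sites with DpnI, amplified by 25 cycles of PCR and sequenced. The submitters' processing notes name cutadapt, Bowtie2, bedtools and SAMtools with no version, and a zebrafish build. The method and thresholds of region detection and the medaka assembly are not given in the sources used here. Column 5 holds a score that the authors deposited as a whole number; its quantity is not stated and it was used only to rank regions within a list. PCR reads are not independent molecules, and depth per sample is unknown.

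Regions were read with pandas 2.3.3 and grouped by sequence name. Shares carry Wilson 95% intervals (scipy 1.17.1), odds ratios intervals from the log odds, and medians order-statistic intervals. These intervals were tested on simulated independent draws only, which does not cover lists whose neighbouring regions depend on each other. Positions count from 1. Regions overlapped where they shared at least 1 bp. A sequence reached at least to its last listed end over the 4 lists. Named regions were the 5 of highest score and the 5 longest unplaced ones of each list, described in part. Named sequences were the 10 with most regions and, per factor, the 3 with the largest excess of positive or of control regions by count. Scaffold212 and scaffold661 entered by that rule. The members, lists and measures were chosen with earlier results of these data known. The gene table at hand is of an assembly that could not be matched to the lists, and it was not used. Alternatives kept the upper 50% by score, regions of at least 300 bp, merged regions within 10 kb, used summed length, required a listed span of 100 kb, or left out the sequence with most regions. Regions at the first base, gaps of 4 bases, scaffold number, score classes and 1 Mb windows were looked at after the data had been seen.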

Additional observations from a re-analysis of the deposited data

Results flagged for a closer look

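A signal outside the comparisons above lay on the mitochondrial sequence, which is neither a chromosome nor an unplaced piece. The Yap1 positive list held 1 region there, at 14676 to 16714 with score 294 and rank 333, against 0 in its control list. The Yap1b positive list held 1 region there, at 15207 to 16714 with score 158 and rank 2078, against 0 in its control list. Counts of 1 and 0 are not distinguishable by counting, and both lists share the Dam-GFP sample.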

How the results depend on the processing

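No paired analysis was possible because each group was 1 sample. The unplaced odds ratio, positive over control, stayed below 1 for both factors in each alternative run for it. Of 107 alternative values for 31 results, most of them shares or medians of one list, 95 stayed within the interval of the value given above. The cause was not tested for the 12 that moved. With the upper 50% by score the unplaced share was 24.3% in the Yap1 control list and 27.4% in the Yap1b control list, and the unplaced odds ratio of Yap1b was 0.459. Median unplaced lengths were then 1003.5 bp in the Yap1 positive list, against 901 bp in its control list, and 870.5 bp in the Yap1b control list. Without regions at the first base, an alternative chosen after seeing the data, the unplaced share was 15.8% in the Yap1 positive list and 13.7% in the Yap1b positive list. Without ultracontig115 the ultracontig share of unplaced regions was 26.0% in the Yap1 positive list and 26.3% in the Yap1b positive list. In the control lists it was then 31.6% for Yap1 and 27.8% for Yap1b, which had not moved out of their intervals. Among the top 50 by score, also chosen after seeing the data, 40.0% of the Yap1 positive list were unplaced, against 42.0% of the Yap1 control list. Matching named regions by at least 50% of both lengths kept 17 of 31 entries in other lists. Leaving out a replicate was not possible, and the unknown depth sets which regions could be listed at all.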
